A study of Mus musculus with 2 samples.

Results

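The TNF ligand and receptor superfamily was followed over 3 h of culture in CFU-E cells (erythroid colony-forming units), fetal liver progenitors that depend on erythropoietin to survive and divide. Its members here were the genes whose symbol begins with Tnfrsf, Tnfsf, Tnfaip or Traf with a digit, together with Fas, Fasl, Cd40, Cd27, Ltbr, Lta, Ltb and Cd70. The table held 51 of them among 17874 genes, each measured by 1 probe set. A RefSeq gene table listed 58 protein-coding symbols under the same rule, of which 50 were present, and the remaining member was the antisense RNA Tnfsf13os. Tnfsf12, Tnfsf13, Tnfsf15, Tnfsf18, Tnfsfm13, Tnfrsf26, Traf3 and Tnfaip8l3 were not analysed here.

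Ligands of this superfamily are mostly membrane-bound trimers that can be shed, and each clusters 1 or more receptors on a target cell. Receptors with a cytoplasmic death domain can recruit the adaptor FADD and caspase-8 and start apoptosis, whereas the others bind TRAF adaptors, which activate NF-kB and the JNK and p38 kinases. Tnfaip genes were mostly named as TNF-induced transcripts, and some of their products limit this signalling. In erythroid progenitors, Fas and TRAIL receptor signalling is known as a brake on expansion that erythropoietin counters.

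The study profiled CFU-E cells from BALB/c embryos at gestational day 13.5, which per the protocols lack the erythropoietin receptor (EpoR-/-), on 1 Affymetrix array at 0 h and 1 at 3 h. Fetal livers were pooled, 40 to 50 per sort, and cells were depleted on magnetic beads of those with lymphoid (CD4, CD8, CD45R/B220), myeloid (GR1, CD11b, CD14), megakaryocytic (CD41), pan-leukocyte (CD45) or late erythroid (TER-119) surface antigens and of those bound by a further monoclonal antibody. All cells were first kept for 1 h without growth factors, and were then either lysed (0 h) or kept in PANSERIN 601 medium until lysis at 3 h. The genotype field names Epo where the protocols name its receptor, a strain field is present for the 0 h sample alone, and the treatment field at 3 h gives supplemental growth factors where the protocol says none were added, so the groups are named by time. Per the protocols both groups carry the deletion, wild-type cells were not analysed here, and the sources used here do not say if both samples came from 1 pool. With 1 array per time, no difference below has an error, a test or a p-value, the spread between samples is unknown, and precision is limited by the number of arrays.

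Values are deposited log2 expression values, and a difference is 3 h minus 0 h. Counts include the genes with at least 1 value at or above 5.70, the median over all genes and both arrays, which is called the floor. Differences of 2-fold and 1.5-fold served as thresholds of size. Brightness differs between probes, so levels of different genes are compared only with this floor. Erythroid markers fixed for this work were at or above the floor in 8 of 9 measured, among them Klf1 (12.03 at 0 h, 12.31 at 3 h) and Gata1 (9.32 and 10.15), but all 10 measured hepatocyte markers were too, with Afp at 14.60 and 14.53. Epor, the gene named as deleted, was among the erythroid markers at the floor (7.08 and 6.89), and since it is not known whether its probe set lies in the deleted part, this value checks nothing about the genotype. The values therefore describe a mixture. In such bulk samples, fewer cells of a type and less RNA per cell cannot be told apart.

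**Figure D1:**
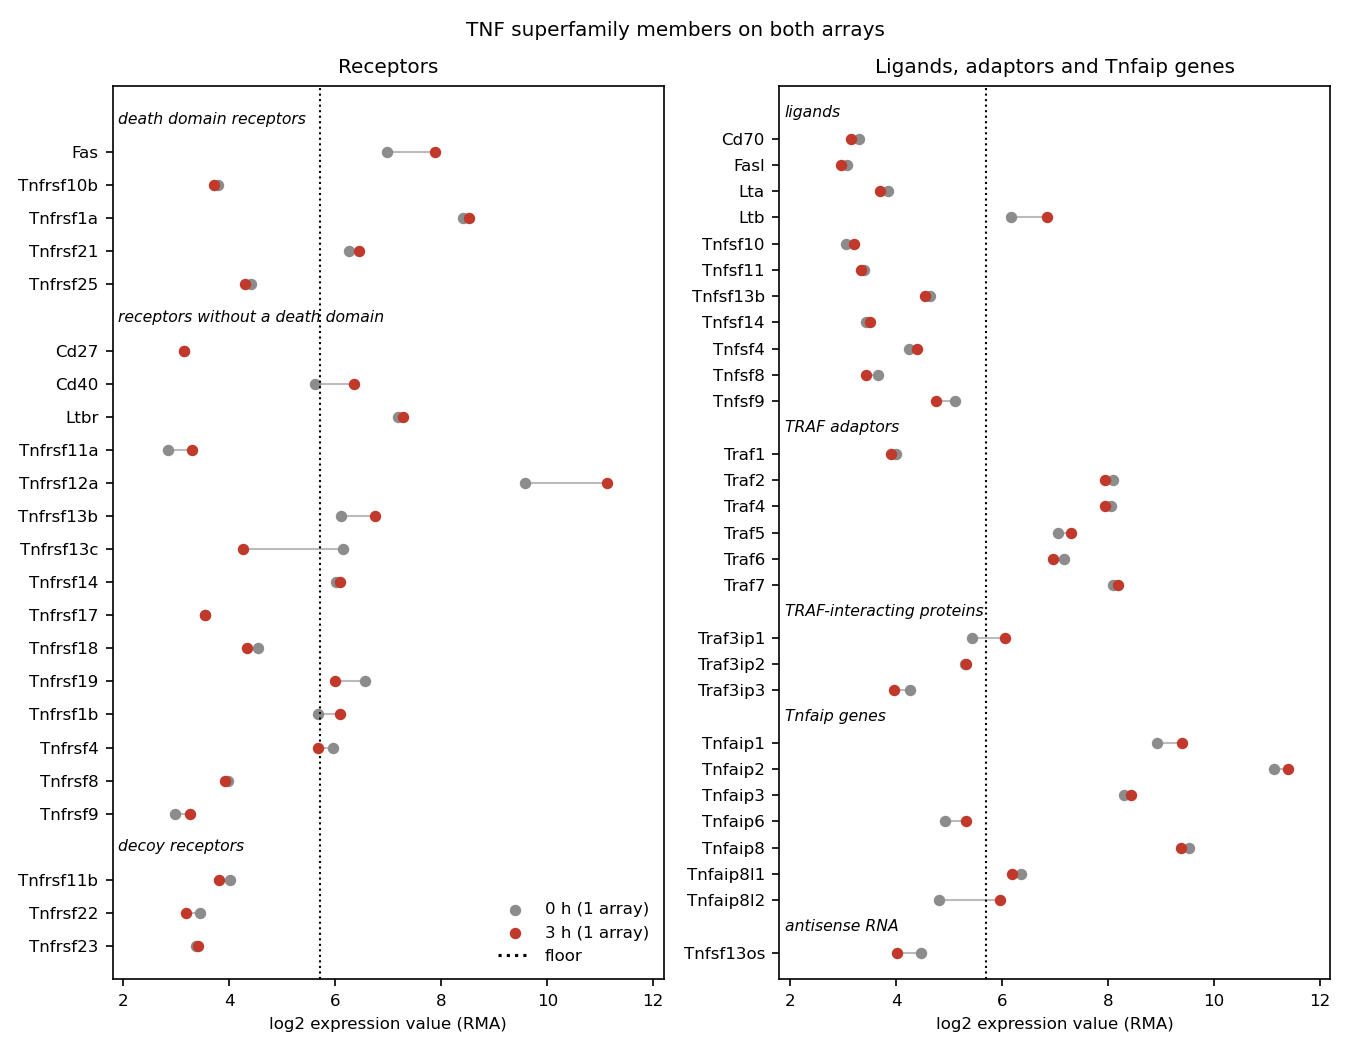
Deposited log2 values (x axis) of all 51 members at 0 h (grey) and 3 h (red), 1 array each, grouped by role, with the floor of 5.70 as a dotted line. Tnfrsf12a, Fas and Ltb lay to the right at 3 h and Tnfrsf13c to the left, while 10 of 11 ligands stayed below the floor on both arrays.

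The 3 members past 2-fold were 2 receptors and a Tnfaip gene, whereas most ligands were below the floor and TRAF adaptors differed by less than 1.5-fold. Of the 51 members, 25 (49.0%) reached the floor on at least 1 array, against 51.9% of all genes. At least 2-fold, 2 of these 25 were higher at 3 h (Tnfrsf12a and Tnfaip8l2), against a background of 2.00% of 9284 genes, and 1 was lower (Tnfrsf13c), against 0.872%. At least 1.5-fold, 7 were higher (28.0%), adding Fas, Cd40, Ltb, Tnfrsf13b and Traf3ip1, against 6.94% of all genes, and 1 was lower, against 4.80%. The median difference of the 25 was 0.12 and that of all genes at the floor was 0.01. These shares describe 2 arrays, and a gene that passed the floor on 1 array alone had to differ. There were 6 such members, namely Tnfrsf13c, Tnfaip8l2, Cd40, Traf3ip1, Tnfrsf1b and Tnfrsf4. Over the 19 members at the floor on both arrays, 4 were at least 1.5-fold higher (21.1%, against 5.26% of 8590 genes), 0 were lower by that much (against 4.11%), 1 was at least 2-fold higher (against 1.06%) and 0 were 2-fold lower (against 0.629%). With the floor applied to the mean of both arrays, an alternative chosen after seeing the data, 6 of 23 were at least 1.5-fold higher (26.1%, against 6.04% of 8911 genes) and 0 lower (against 4.40%), with 1 at least 2-fold higher (against 1.46%) and 0 lower (against 0.729%). The 26 members below the floor on both arrays had values between 2.84 and 5.31 at 0 h and between 2.96 and 5.33 at 3 h, and their median difference was -0.07.

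**Figure D2:**
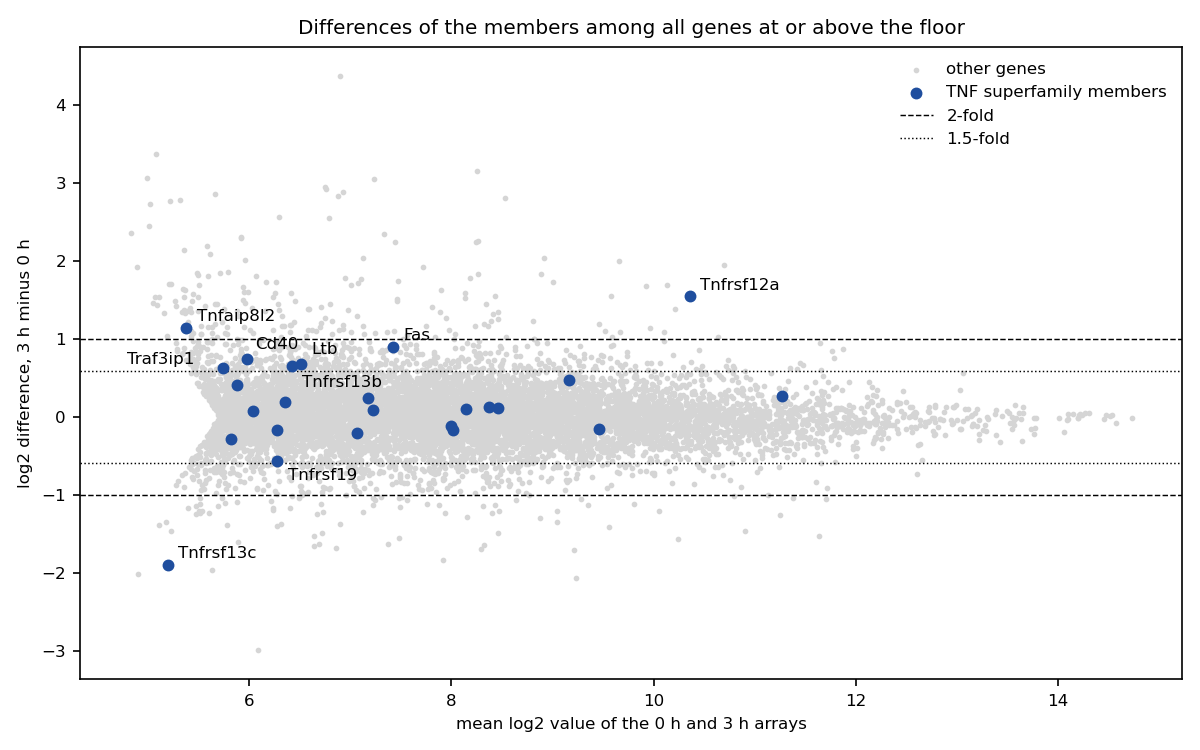
Difference in log2 value, 3 h minus 0 h (y axis), against the mean log2 value of both arrays (x axis) for 9284 genes at or above the floor (grey) and the 25 members among them (blue), with dashed lines at 2-fold and dotted lines at 1.5-fold. Tnfrsf12a stands at 1.55 with both values above the floor of 5.70, whereas Tnfrsf13c, at -1.89, and Tnfaip8l2, at 1.15, lie at the dim edge with 1 value below it.

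Among death domain receptors, 3 of 5 reached the floor and all 3 were higher at 3 h. As background for the counts by role here and below, 4777 of all 9284 genes at the floor and 17 of the 25 members were higher. Fas, the receptor of Fas ligand, went from 6.98 at 0 h to 7.88 at 3 h, a 1.87-fold difference. Both values were above the floor. Tnfrsf1a, the main receptor of soluble TNF, stood at 8.41 and 8.52, and Tnfrsf21, a receptor studied mainly in neurons and lymphocytes, at 6.25 and 6.45, differences of 0.11 and 0.19. Both of these were within the robust SD of all differences at the floor, 0.31, which measures the scatter among genes of these 2 arrays and not that between replicates. The probe set of Tnfrsf21 has the suffix _s_at, which marks a match to several transcripts. Tnfrsf10b, the mouse TRAIL receptor (3.78 and 3.72), and Tnfrsf25 (4.41 and 4.29) were below the floor on both arrays. With 1 probe set per gene, a dim value is no evidence that a transcript is absent.

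Of the receptors without a death domain, 9 of 15 reached the floor, 6 higher and 3 lower at 3 h. Tnfrsf12a, the receptor of TWEAK and known as an early growth factor-inducible gene, went from 9.58 to 11.13, a 2.92-fold difference and the highest among the members, with both values above the floor. It was measured by a probe set with the suffix _x_at, which marks possible signal from other transcripts. Tnfrsf13b, which encodes the receptor TACI for BAFF and APRIL, went from 6.10 to 6.75 (1.57-fold higher). Cd40, the costimulatory receptor of antigen-presenting cells, went from 5.61, just below the floor, to 6.35 (1.67-fold higher, and 1.57-fold with the 0 h value set to the floor). Its probe set has the suffix _s_at, which marks a match to several transcripts.

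Tnfrsf13c, which encodes the BAFF receptor of B cells, went from 6.15 at 0 h to 4.25 at 3 h, a difference of -1.89 as deposited. The 3 h value was below the floor, so the size is uncertain, and with it set to the floor the difference was -0.44 (1.36-fold lower), under both thresholds. Tnfrsf19, a receptor of epithelial and neural progenitors, had values of 6.56 and 5.99, both above the floor, and its difference of -0.57 lay just inside 1.5-fold. As deposited Tnfrsf13c had the lowest difference among the members at the floor, and with values below the floor set to it Tnfrsf19 did. The remaining receptors at the floor differed by less. Tnfrsf1b, the other TNF receptor, stood at 5.68 and 6.09, Tnfrsf4, the T cell costimulator OX40, at 5.96 and 5.68, Ltbr, the lymphotoxin receptor, at 7.18 and 7.27, and Tnfrsf14, the receptor of LIGHT, at 6.01 and 6.08. The lymphocyte costimulator genes Cd27, Tnfrsf8, Tnfrsf9 and Tnfrsf18, the RANK gene Tnfrsf11a and the plasma cell receptor gene Tnfrsf17 were below the floor on both arrays, as were the decoy receptor genes Tnfrsf11b, which encodes osteoprotegerin, and Tnfrsf22 and Tnfrsf23, which bind TRAIL. At 0 h the decoy receptors had values between 3.37 and 4.01, and at 3 h between 3.18 and 3.80.

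Markers of blood and liver cells were set beside these receptors, since Cd40, Tnfrsf13b and Tnfrsf13c are known from B cells and myeloid cells. As background, of all 9284 genes at the floor 4777 were higher and 4507 lower at 3 h. Of 9 B cell markers measured, none reached the floor at 0 h and Ighm alone did at 3 h (6.44). At 0 h Ighm, at 5.699, was just below the floor of 5.702. Cd79a (4.44 and 4.32), Ms4a1 (3.22 and 3.29) and Pax5 (3.64 and 3.24) were among those below it on both arrays. The log2 of the markers' summed level was 7.86 and 8.12. None of 8 T and NK cell markers reached the floor, and their summed level was 7.26 and 7.32. Of 13 granulocyte and mast cell markers 10 reached the floor, 7 of them already at 0 h, and all 10 were higher at 3 h. S100a9 (9.72 and 11.67) and S100a8 (9.28 and 10.98) differed most, with both values above the floor. Camp (5.11), Lcn2 (4.53) and Ngp (5.25) were below the floor at 0 h, so they could only be higher. At least 1.5-fold, 7 of the 10 were higher, against 6.94% of all genes. With values below the floor set to it 6 were, against 5.67%. The summed level of the 13 was 12.67 and 13.62. Of 12 macrophage markers 4 reached the floor and 8, among them Adgre1, Cd68 and C1qa, did not. Csf1r (8.32 and 9.32), Lyz2 (7.98 and 9.80) and Fcgr3 (7.26 and 8.07) were higher at 3 h, and Vcam1 (9.22 and 8.25) was lower. The summed level of the 12 was 10.52 and 11.14. All 10 hepatocyte markers had lower values at 3 h, with a summed level of 16.37 and 16.22. Of 8 erythroid markers at the floor 7 were higher at 3 h, and 5 were at least 1.5-fold higher, against 6.94% of all genes. Their median difference was 0.69, and the summed level of the erythroid markers was 12.93 at 0 h and 13.44 at 3 h. Among the erythroid markers Slc4a1 differed most (5.47 and 8.30, the first below the floor). Of 7 megakaryocyte markers 4 reached the floor, with a summed level of 8.40 and 8.73, and Gp1bb differed most (4.49 and 6.68, 1.97-fold higher with the 0 h value set to the floor). Of 8 endothelial markers 4 reached it, 2 higher and 2 lower, with a summed level of 8.78 and 8.89. The part of these cell types in the differences of the TNF superfamily genes was not tested.

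**Figure D3:**
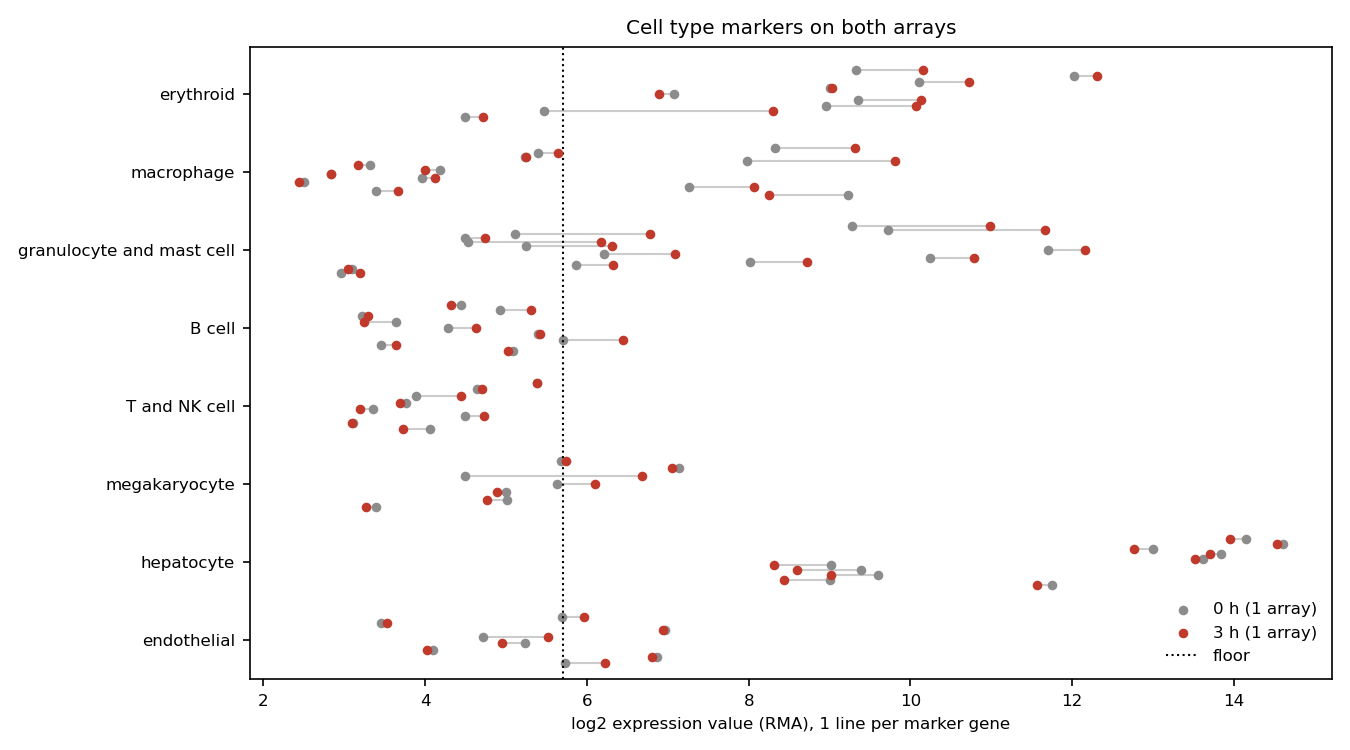
Deposited log2 values (x axis) of cell type markers at 0 h (grey) and 3 h (red), 1 array each and 1 line per gene, with the floor of 5.70 dotted. Granulocyte and mast cell markers that reached the floor lie further right at 3 h, Camp, Lcn2 and Ngp from 0 h values below it. B cell, T and NK cell markers other than Ighm stay left of the floor.

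Most ligands were dim, and 10 of 11 measured were below the floor on both arrays. The exception was Ltb, the membrane-anchoring subunit of lymphotoxin, which went from 6.18 at 0 h to 6.85 at 3 h, 1.60-fold higher, with both values above the floor. Its receptor gene Ltbr differed by 0.09, and its partner subunit gene Lta stood at 3.85 and 3.70. Fasl (3.07 and 2.96), the ligand of Fas, and Tnfsf13b (4.65 and 4.55), which encodes BAFF, were among those below the floor. So were Tnfsf10, the TRAIL gene (3.06 and 3.21), Tnfsf11, the RANKL gene (3.40 and 3.34), and the genes of the T cell costimulatory ligands Cd70, Tnfsf4, Tnfsf8, Tnfsf9 and Tnfsf14. Tnf itself, which the symbol rule leaves out, stood at 4.98 and 4.96, and Cd40lg at 4.79 and 4.63. Fas, Tnfrsf1a and the TACI gene Tnfrsf13b were thus at the floor on both arrays, beside Fasl, Tnf and the BAFF gene Tnfsf13b below it. The gene of APRIL, the other ligand of TACI, is Tnfsf13, which was not analysed here. Cd40 (5.61 at 0 h) and Tnfrsf13c (4.25 at 3 h) were at the floor on 1 array alone. The floor was also reached by 8 of 35 genes of other organs, and a dim ligand value does not show that its transcript is absent. Cd70 lies between Tnfsf9 and Tnfsf14 in the gene order of the assembly GRCm38.p6, and all 3 of these neighbours were below the floor. The antisense RNA Tnfsf13os was below it as well (4.47 and 4.01).

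TRAF adaptors, which carry the signal from the receptors to kinases, differed little between the arrays. Of 6 measured, 5 reached the floor on both arrays, with differences between -0.21 and 0.24 and a median of -0.11. Traf6, which also serves interleukin and Toll-like receptors, had values of 7.17 and 6.96, and Traf2, the main adaptor of TNF receptors, 8.10 and 7.94. Traf4, with roles in development, stood at 8.06 and 7.94, Traf5, an adaptor of CD40 and CD27, at 7.06 and 7.30, and the ubiquitin ligase gene Traf7 at 8.09 and 8.20. None differed by 1.5-fold. Traf1, which is itself an NF-kB target, was below the floor (3.99 and 3.91). Among TRAF-interacting proteins, Traf3ip1, which acts in ciliary transport, went from 5.43 to 6.06 (1.55-fold higher, and 1.28-fold with the 0 h value set to the floor), whereas Traf3ip2 and Traf3ip3 were below the floor on both arrays.

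Of the 7 Tnfaip genes, 6 reached the floor, 4 higher and 2 lower at 3 h. Tnfaip8l2, a negative regulator of innate immune signalling known from lymphoid and myeloid cells, went from 4.81 to 5.95, a 2.21-fold difference. Its 0 h value was below the floor, and with that value set to the floor it was 1.19-fold higher. Tnfaip1, an adaptor of a cullin ubiquitin ligase, went from 8.93 to 9.40 (1.39-fold higher) and Tnfaip2, which acts in membrane nanotube formation, from 11.14 to 11.41 (1.20-fold higher, a probe set with the suffix _x_at). Tnfaip3, the deubiquitinase gene that ends NF-kB signalling and is itself an NF-kB target, stood at 8.31 and 8.43, a difference of 0.12. Tnfaip8, a regulator of apoptosis (9.54 and 9.39), and Tnfaip8l1 (6.36 and 6.20) were lower by less than 1.5-fold, and Tnfaip6, which encodes a hyaluronan-binding protein, was below the floor (4.93 and 5.33).

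The promoters of the members were searched for the NF-kB consensus, since several of these genes are known NF-kB targets. RefSeq promoters of GRCm38.p6, from 250 bases before to 50 after each start, matched 23 of the 25 members at the floor by gene ID. Of these 23 genes, 4 held a match on either strand (17.4%), against 953 of 7603 genes at the floor (12.5%). Among the 7 members with a promoter that differed by at least 1.5-fold there was 1 match, in Ltb. The promoters of Tnfrsf12a, Tnfrsf13c, Fas, Tnfrsf13b, Traf3ip1 and Tnfaip8l2 held none in this window, and Cd40 and Tnfaip8 had no entry. The 4 promoters with a match are shown 5′ to 3′ on the strand of the gene, 300 bases each, with the matching bases in capitals. They are those of the members at the floor that held a match. Ltb differed by 0.68, while Tnfaip3 (0.12), Tnfaip2 (0.27) and Tnfaip8l1 (-0.17) were within the robust SD of 0.31. The part of a match in any difference was not tested. A match is a description of the letters and not a measured binding site.
Ltb, chr17:35194257-35194556, plus strand: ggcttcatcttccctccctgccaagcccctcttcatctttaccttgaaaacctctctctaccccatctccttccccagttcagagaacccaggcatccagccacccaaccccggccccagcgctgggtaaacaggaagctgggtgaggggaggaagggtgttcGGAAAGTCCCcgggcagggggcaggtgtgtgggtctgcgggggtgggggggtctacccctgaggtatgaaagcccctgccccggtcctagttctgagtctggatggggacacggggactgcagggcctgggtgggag
Tnfaip3, chr10:19015361-19015660, minus strand: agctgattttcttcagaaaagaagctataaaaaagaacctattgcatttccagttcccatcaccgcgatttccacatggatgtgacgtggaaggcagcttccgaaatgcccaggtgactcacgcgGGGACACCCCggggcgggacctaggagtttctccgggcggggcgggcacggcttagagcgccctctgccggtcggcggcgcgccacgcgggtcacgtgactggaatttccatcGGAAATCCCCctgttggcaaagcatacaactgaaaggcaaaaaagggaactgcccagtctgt
Tnfaip2, chr12:111442411-111442710, plus strand: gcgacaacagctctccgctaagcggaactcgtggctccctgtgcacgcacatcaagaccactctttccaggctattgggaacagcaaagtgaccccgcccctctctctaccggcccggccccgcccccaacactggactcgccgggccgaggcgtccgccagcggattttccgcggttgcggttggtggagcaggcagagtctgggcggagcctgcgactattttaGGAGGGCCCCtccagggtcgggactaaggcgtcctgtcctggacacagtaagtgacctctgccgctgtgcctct
Tnfaip8l1, chr17:56162241-56162540, plus strand: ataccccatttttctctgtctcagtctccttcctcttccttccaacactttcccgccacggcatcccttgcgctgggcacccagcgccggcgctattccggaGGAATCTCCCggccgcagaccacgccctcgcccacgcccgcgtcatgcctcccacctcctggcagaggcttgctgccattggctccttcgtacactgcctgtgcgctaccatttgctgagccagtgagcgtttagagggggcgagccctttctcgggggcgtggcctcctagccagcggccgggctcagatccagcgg
In Ltb the match began 87 bases before the start and in Tnfaip2 24 bases before it. Tnfaip8l1 had its match 148 bases before the start, and Tnfaip3 had 2, at 125 and 12 bases before it, in 1 of its 2 RefSeq promoters.

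Genes that act below the receptors were described from lists chosen for this work. In death receptor signalling, 8 of 10 measured genes reached the floor, 7 higher and 1 lower, with a median difference of 0.43, where 4777 of all 9284 genes at the floor were higher and their median was 0.01. The proapoptotic BCL2 family gene Bid, which caspase-8 cleaves, was 1.53-fold higher (9.09 to 9.71) and the only one of the 8 past 1.5-fold, where 6.94% of all genes at the floor were higher by that much. Next were the Fas-binding protein gene Daxx (8.80 to 9.38, 0.58), Casp8, the initiator caspase of death receptors (7.85 to 8.40, 0.55), and the deubiquitinase gene Cyld (5.99 to 6.48, 0.49). Cflar, which encodes the caspase-8 inhibitor c-FLIP, stood at 6.69 and 6.88, a difference of 0.20, and Fadd at 7.63 and 7.73. The differences of Cflar and Fadd (0.10) were within the robust SD of 0.31.

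NF-kB genes below the receptors did not go one way. Of 22 measured, 18 reached the floor, 10 higher and 8 lower, with a median of 0.05, 2 were at least 2-fold lower (0.872% of all genes) and 0 were higher by 1.5-fold (6.94% of all genes). These were Relb (9.15 to 7.45) and Nfkb2 (9.21 to 7.72), the subunits of the noncanonical pathway that the receptors Ltbr, Tnfrsf13c, Cd40 and Tnfrsf12a are known to activate. The kinase gene Tbk1 (0.55) and the subunit gene Rela (-0.45) came next in size. The apoptosis inhibitor gene Birc3, which controls that pathway, stood at 9.03 and 9.05, and Map3k14, the kinase gene NIK, was below the floor (5.43 and 5.27).

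Of 21 NF-kB target genes measured, 18 reached the floor, with a median of -0.34. By 2-fold or more, 2 were higher and 4 lower, against 2.00% and 0.872% of all genes, and by 1.5-fold or more 3 were higher and 8 lower, against 6.94% and 4.80%. With values below the floor set to it, 0 were 2-fold higher and 4 lower, and 3 were 1.5-fold higher and 8 lower. The list shares Relb, Nfkb2 and Birc3 with the one before. Ccl2 (4.29 to 6.43) and Ptgs2 (4.57 to 6.66) were below the floor at 0 h, and with those values set to it they were 1.66-fold and 1.94-fold higher. The regulators Nfkbiz (10.26 to 8.20) and Nfkbie (7.51 to 5.88) were 4.18-fold and 3.10-fold lower. Nfkbia, the main inhibitor gene, differed by -0.24. Of 9 genes of JNK and p38 signalling 7 reached the floor, with a median of 0.09. The AP-1 gene Jun was 2.32-fold lower (10.66 to 9.45), the 1 gene of the 7 past 2-fold (0.872% of all genes were lower by that much), while Map3k5 (0.46), Map2k4 (0.37) and Map2k6 (0.13) were higher by less than 1.5-fold. Of 8 superfamily genes outside the symbol rule only Relt reached the floor (7.25 and 6.68, a difference of -0.58, just inside 1.5-fold). Eda2r, the ectodysplasin A2 receptor gene known as a p53 target, went from 3.61 to 4.40, below the floor throughout.

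**Figure D4:**
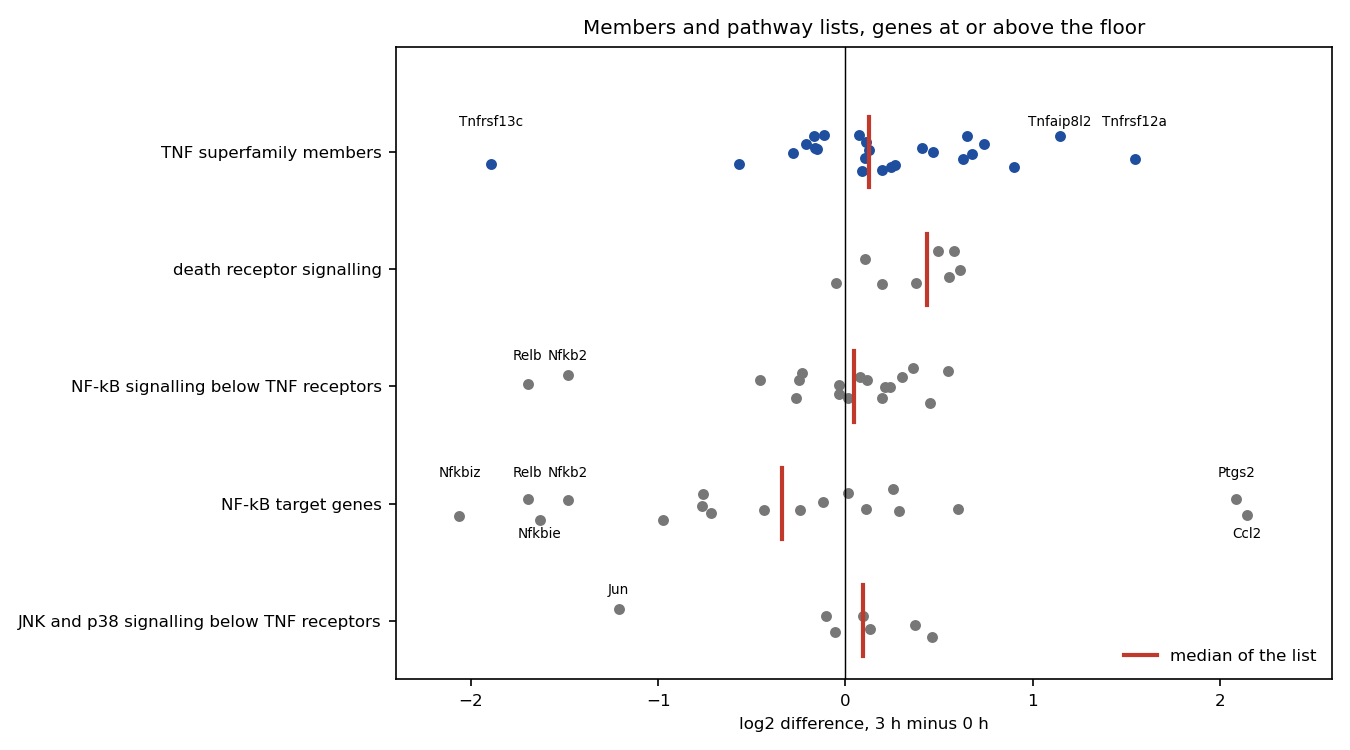
Difference in log2 value, 3 h minus 0 h (x axis), of each gene at or above the floor in the TNF superfamily (blue) and in 4 lists of genes that act below its receptors (grey), with the median of each list as a red bar. Genes past 2-fold are named, the members spread from -1.89 to 1.55, and the NF-kB target genes reach both -2.06 and 2.15, the latter from a 0 h value below the floor. At -1.89, Tnfrsf13c has a 3 h value below the floor. Points are spread vertically for legibility.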

How the data were processed

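The authors deposited log2 expression values for 20666 probe sets on 2 arrays, made with RMA and the affy package per the submitters' processing notes, with no versions. RMA corrects background, quantile-normalizes and summarises the probes of a probe set, so a shift of all transcripts cannot be seen and differences of dim genes are shrunk. Values were used as deposited. A platform annotation table gave 17918 probe sets 1 gene, 79 several and 2669 none, and those with several or none were left out. Entrez IDs of 17767 probe sets matched RefSeq genes of GRCm38.p6. Probe sets of a gene were averaged. No coordinates of probe sets are given, since no build is named for them.

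The time in the sample titles set the groups. Members and lists were chosen with earlier results of these data known. Values were given for every member at the floor and for Tnf, Relb, Nfkb2, Nfkbie, Nfkbiz, Nfkbia, Birc3, Casp8 and Cflar. For other lists, apart from those of cell type markers, values were given for up to 4 genes with the largest difference. Other genes named, such as Fadd, Map3k14, Cd40lg, Eda2r and cell type markers, were chosen after their values were seen. Of the list of genes of other organs, 8 of 35 reached the floor, with a median difference of -0.02 and Acta1 (0.69) and Prm1 (-0.46) differing most. Alternatives were quantile normalization of both columns, removal of an intensity trend (loess with a span of 0.3), the brightest probe set of a gene, probe sets without the suffixes _s_at and _x_at, and other floors. The steps were tested on simulated data. Python 3.11.15, numpy 2.4.6, pandas 2.3.3, statsmodels 0.14.6 and matplotlib 3.10.9 were used.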

Additional observations from a re-analysis of the deposited data

How the results depend on the processing

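With 1 array per time no replicate could be left out, and no paired analysis was possible because the groups have 1 sample each. Each member has 1 probe set, so the choice of probe set, the suffix filter and the other floors could not reverse the sign of a difference. Quantile normalization and removal of an intensity trend could, and under both the 25 members at the floor kept their sign. The 2-fold and 1.5-fold counts depended on the floor. Requiring it on both arrays left 1 member higher and 0 lower by 2-fold, against 1.06% and 0.629% of 8590 genes. By 1.5-fold it left 4 higher and 0 lower, against 5.26% and 4.11%. A floor of 7.13, below which 95% of values of other-organ genes lay, left 13 members and 6426 genes in all. By 2-fold 1 of the 13 was higher and 0 lower, against 1.43% and 0.809% of these genes. By 1.5-fold 2 were higher (Tnfrsf12a and Fas) and 0 lower, against 5.65% and 4.64%. Applied to the mean of both arrays, or with values below the floor set to it (both chosen after seeing the data), the floor left 1 member higher by 2-fold and 0 lower by 2-fold or 1.5-fold. For the mean, the shares of all genes were 1.46%, 0.729% and 4.40% in that order, and for values set to the floor 1.29%, 0.646% and 4.03%. With values set to the floor, Tnfrsf13c moved to -0.44 and Tnfaip8l2 to 0.25. With no floor the median difference over 51 members was 0.0043. Without probe sets of the suffixes _s_at and _x_at, Tnfrsf12a and Cd40 were among the members that dropped out, since each is measured by such a probe set. The 1 member still 2-fold higher (against 1.99% of 8604 genes) was Tnfaip8l2, whose 0 h value is below the floor. By 1.5-fold 5 members were higher, against 6.96%. Quantile normalization and removal of an intensity trend each gave 2 members at least 1.5-fold lower, against 5.39% and 5.06% of all genes. The added member was Tnfrsf19, at -0.64 and -0.60. Under quantile normalization Traf3ip1, at 0.58, was no longer past 1.5-fold. Dim signals near the floor limit what these arrays can resolve.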
